A study of Mus musculus with 30 samples.

Results

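Gene expression was compared between the livers of 5 obese mice that received UB-NPs as a treatment and those of 5 mice that received them as a prevention. These 10 libraries, of the 30 in the series, were chosen by their sample labels. Uro mice became obese on a high-fat diet over 10 weeks and then stayed on it for 8 weeks with 60 mg/kg/day of UB-NPs, 18 weeks of high-fat diet in all. UB mice, labelled as normal at the start, received the same daily dose together with the diet for 10 weeks. The labels leave UB-NPs without a full name. Both groups therefore shared the diet, the agent and the dose, and neither was free of UB-NPs. They differed in the study they came from, the length of high-fat feeding, the obesity before dosing, the weeks of dosing and the time at which tissue was taken. These differences coincide with the groups and cannot be told apart, so no value below is an effect of the start of dosing alone.

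The corresponding difference without UB-NPs was taken from 2 further groups on the same diet. HFD mice were the obese mice of the treatment study, with water for the last 8 of their 18 weeks, and MC mice had the high-fat diet and water for the 10 weeks of the prevention study. HFD minus MC shares no library with Uro minus UB and carries the same confounded step between the studies. The mice on a standard diet and water, NFD at 18 weeks and NC at 10 weeks, were used in the same way. Strain, sex and age at the start are not in the labels. Libraries are treated below as separate mice, a point on which the labels are silent, and p-values measure the spread between libraries.

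The liver takes up fatty acids, makes and exports lipids, synthesises most plasma proteins, clears nitrogen as urea and converts cholesterol to bile acids. It detoxifies foreign compounds in stages: cytochromes P450 oxidise them, and enzymes such as glutathione S-transferases conjugate the products for export. Much of this second stage is under the transcription factor NRF2, and lipid synthesis is under SREBP factors. Prolonged high-fat feeding loads hepatocytes with triglyceride and draws in macrophages. Interferon response genes are switched on in hepatocytes and immune cells by type I and type II interferons through STAT and IRF factors.

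Total counts were 22.3 ± 1.63 M (mega) in Uro and 18.2 ± 0.858 M in UB livers (SD, n = 5 each). The mitochondrial genome and its nuclear copies accounted for 14.1 to 21.6% of the counts in Uro and 41.8 to 52.0% in UB livers. This mitochondrial share differed by -26.19 percentage points (exact two-sided permutation p = 0.007937, the smallest that 5 against 5 libraries allow, adjusted p = 0.02381 over 3 comparisons). In HFD minus MC it differed by 15.22 points, in the other direction (exact permutation p = 0.07143, adjusted p = 0.1071). The counts left for other genes were 15.6 to 19.7 M in Uro and 8.54 to 11.04 M in UB livers, so low genes were measured with less counting error in Uro. The liver identity of the tissue was clear in both groups: 20 hepatocyte marker genes summed to 44959 to 62785 CPM in Uro and 23571 to 38479 CPM in UB, and 0 of them were without counts. CPM are counts divided by the library size in M, the sizes being scaled by trimmed means.

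**Figure D1:**
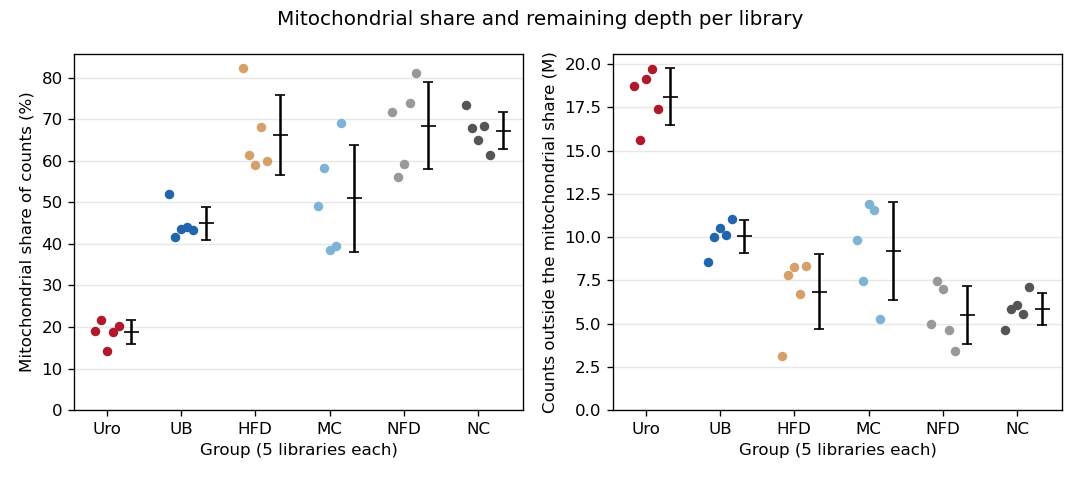
Mitochondrial share of each library (left, percent of counts) and counts outside that share (right, M), for 5 libraries in each of 6 groups, with mean and SD beside the points. The Uro libraries have shares of 14.1 to 21.6% and lie below the UB libraries at 41.8 to 52.0%, and their counts for other genes lie above those of UB.

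Of 14785 genes tested, 2008 (13.6%) were called between Uro and UB, with 1033 (6.99%) higher and 975 (6.59%) lower in Uro (edgeR quasi-likelihood F-test, Benjamini-Hochberg adjusted p under 0.05). Of all genes, 8.05% had every Uro library above every UB library and 6.74% had every one below. These percentages are the background against which the counts of gene lists are to be read. The median log2 fold change of all genes was -0.005, and 954 of the called genes differed at least 2-fold. From the deposited TPM, by contrast, 3031 genes were higher and 315 lower, and the median over all genes was 0.22, so a list whose members are near 0 in counts is above 0 in TPM. Adjusted for the mitochondrial share, 325 genes were called, 152 higher and 173 lower. That fit took the effect of the share from differences within groups, over all 30 libraries. It then carried this effect across the gap between Uro and UB, whose shares do not overlap. The part of the share in the results was not tested. The count was 1261 without UB replicate 2 and 1231 without Uro replicate 3.

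**Figure D2:**
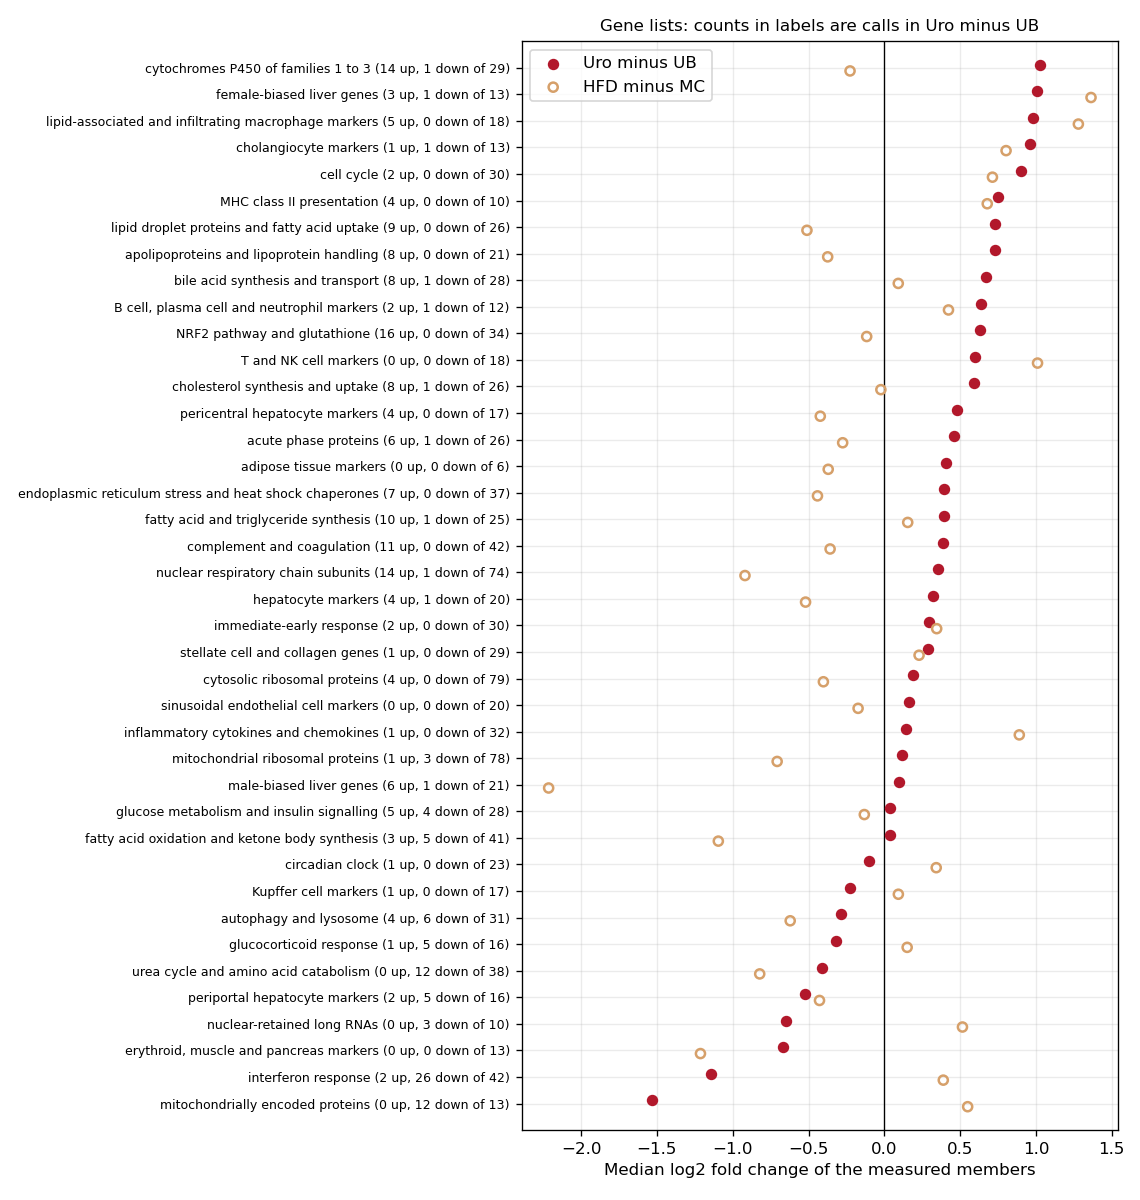
Median log2 fold change of the measured members of each gene list in Uro minus UB (filled) and in HFD minus MC (open), ordered by the first. Labels give the calls in Uro minus UB: cytochromes P450 (14 up, 1 down of 29) stand at the top, and the interferon response (2 up, 26 down of 42) and mitochondrially encoded proteins (0 up, 12 down of 13) at the bottom.

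Of 34 measured genes of the NRF2 pathway and glutathione metabolism, 16 rose, 0 fell and 18 were not called, with a median log2 fold change of 0.63 against -0.005 for all genes. Gsta1, an alpha-class glutathione S-transferase (ENSMUSG00000074183, chromosome 9, 78137927 to 78149966; GRCm39), had 85.4, 18.2, 79.1, 25.5 and 40.8 CPM in Uro livers, against 2.04, 1.69, 4.07, 5.19 and 8.53 CPM in UB livers, listed from replicate 1 to 5 here and below. Means are given with the SD of 5 libraries. Every Uro library was above every UB library, and the log2 fold change was 3.53 ± 0.66 (edgeR adjusted p = 0.000957; the error is an approximate standard error). Gstm3, a transferase of the mu class, had 129.6, 41.9, 184, 48.3 and 60.9 CPM in Uro livers, against 3.67, 3.55, 7.09, 17.2 and 12.6 CPM in UB livers. Its groups did not overlap either, although Uro replicates 2 and 4 were well below replicates 1 and 3, as they were for Gsta1. The fold change was 3.39 ± 0.62 (edgeR adjusted p = 0.000812). Gstm1, the most abundant of the mu class here in CPM, had 3577, 1778, 4493, 1738 and 2339 CPM in Uro livers, against 549, 565, 679, 1020.1 and 928 CPM in UB livers, for a log2 change of 1.90 ± 0.29 (edgeR adjusted p = 4.22e-05). Members of these classes are close in sequence, and how reads shared between them were counted is not stated, so single members are less certain than the family.

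Of the enzymes that make glutathione, Gss and Gclc rose and Gclm was not called. Gss, glutathione synthetase (ENSMUSG00000027610, chromosome 2, 155405096 to 155455505), had 64.0, 55.8, 122.8, 61.2 and 63.5 CPM in Uro livers, against 24.7, 14.7, 22.1, 30.8 and 31.4 CPM in UB livers. Uro replicate 3 was highest by far, yet all Uro libraries lay above all UB libraries (log2 fold change 1.57 ± 0.22, edgeR adjusted p = 2.01e-05). Gclc, the catalytic subunit of the rate-limiting enzyme before it, averaged 128 ± 37.7 CPM in Uro and 57.2 ± 16.6 CPM in UB (edgeR adjusted p = 0.00136). The carbonyl reductase Cbr3 rose by 3.20 on the log2 scale, Gstm2 by 1.28 and Nfe2l2, which encodes NRF2 itself, by 0.67 (edgeR adjusted p = 0.000675, 0.000164 and 0.0135), where Nfe2l2 lost its call without UB replicate 2 (edgeR adjusted p = 0.051). Gclm, the modifier subunit that pairs with Gclc, averaged 113 ± 19.4 CPM in Uro and 90.9 ± 17.2 CPM in UB (edgeR adjusted p = 0.235), and was called, higher, in TPM (limma adjusted p = 0.00546). Other classical NRF2 targets differed among themselves. Srxn1, sulfiredoxin, averaged 58.6 ± 18.3 CPM in Uro and 38.1 ± 5.40 CPM in UB (edgeR adjusted p = 0.03) and lost its call without Uro replicate 3 or UB replicates 1, 2 or 3 (edgeR adjusted p = 0.0698 to 0.198). Txn1, thioredoxin, averaged 184 ± 60.5 CPM in Uro and 118 ± 11.6 CPM in UB (edgeR adjusted p = 0.0275) and lost its call without Uro replicates 1 or 5 or UB replicates 2 or 4 (edgeR adjusted p = 0.0556 to 0.141). Nqo1, a quinone reductase, averaged 10.97 ± 3.23 CPM in Uro and 6.203 ± 1.99 CPM in UB (edgeR adjusted p = 0.123). It was called, higher, when the Uro and UB libraries were fitted alone and in TPM (edgeR adjusted p = 0.025, limma adjusted p = 0.00257). Hmox1, heme oxygenase, averaged 20.2 ± 9.31 CPM in Uro and 19.05 ± 7.72 CPM in UB (edgeR adjusted p = 0.939). The list had 2 members higher and 11 lower in HFD minus MC (background 19.3% of genes called there, 7.03% higher and 12.3% lower). In 14 members the 2 fold changes differed, each more positive in Uro minus UB (edgeR interaction test; background 12.3% called, 8.54% in this direction). The count of 16 was 10 without UB replicate 2 and 6 with the mitochondrial share as covariate.

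Cytochromes P450 of families 1 to 3, the main oxidising enzymes for drugs, steroids and other foreign compounds, rose in 14 of 29 measured members, and 1 fell. The list median was 1.03. Cyp2a12, a steroid hydroxylase (ENSMUSG00000060407, chromosome 7, 26728506 to 26736800), had 569.6, 196, 451, 322 and 518 CPM in Uro livers, against 80.1, 63.0, 87.8, 125 and 153 CPM in UB livers, with no overlap between groups (log2 fold change 2.02 ± 0.26, edgeR adjusted p = 1.04e-05). Cyp1a2, a dioxin-inducible enzyme of pericentral hepatocytes, had 400.1, 348, 386, 225 and 321 CPM in Uro livers, against 92.1, 69.8, 70.2, 86.1 and 154 CPM in UB livers, again without overlap (log2 fold change 1.83 ± 0.39, edgeR adjusted p = 0.00226). Cyp3a11, the main drug-metabolising enzyme of its subfamily, averaged 1941 ± 585 CPM in Uro and 747 ± 287 CPM in UB (edgeR adjusted p = 0.0246). Cyp2e1, which oxidises ethanol, averaged 5431 ± 918 CPM in Uro and 2665 ± 732 CPM in UB (edgeR adjusted p = 0.0187). Cyp2c29, a fatty acid epoxygenase, rose by 1.69 in Uro minus UB and had -1.52 in HFD minus MC (edgeR adjusted p = 0.00216 and 0.00342). Cyp2e1 showed the same reversal, at -2.01 in HFD minus MC (edgeR adjusted p = 1.52e-05). Of the 29 genes, 12 differed between the 2 comparisons, all more positive in Uro minus UB. The one that fell, Cyp2c40, is a low gene here with 0.307 ± 0.231 CPM in Uro and 1.17 ± 0.450 CPM in UB, and lost its call without Uro replicates 1, 2, 3 or 4 or UB replicates 1, 2 or 3 (edgeR adjusted p = 0.0644 to 0.0903). The count of 14 was 7 without UB replicate 2, 8 without UB replicate 3, 8 without Uro replicate 3, 9 without Uro replicate 5, and 1 with the mitochondrial share as covariate, when Cyp2a12 alone remained. Cyp2e1 lost its call without Uro replicate 5 or UB replicates 2 or 3 (edgeR adjusted p = 0.0514 to 0.0635), and Cyp3a11 without Uro replicates 1, 3 or 5 or UB replicates 1, 2 or 3 (edgeR adjusted p = 0.0546 to 0.0756).

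**Figure D3:**
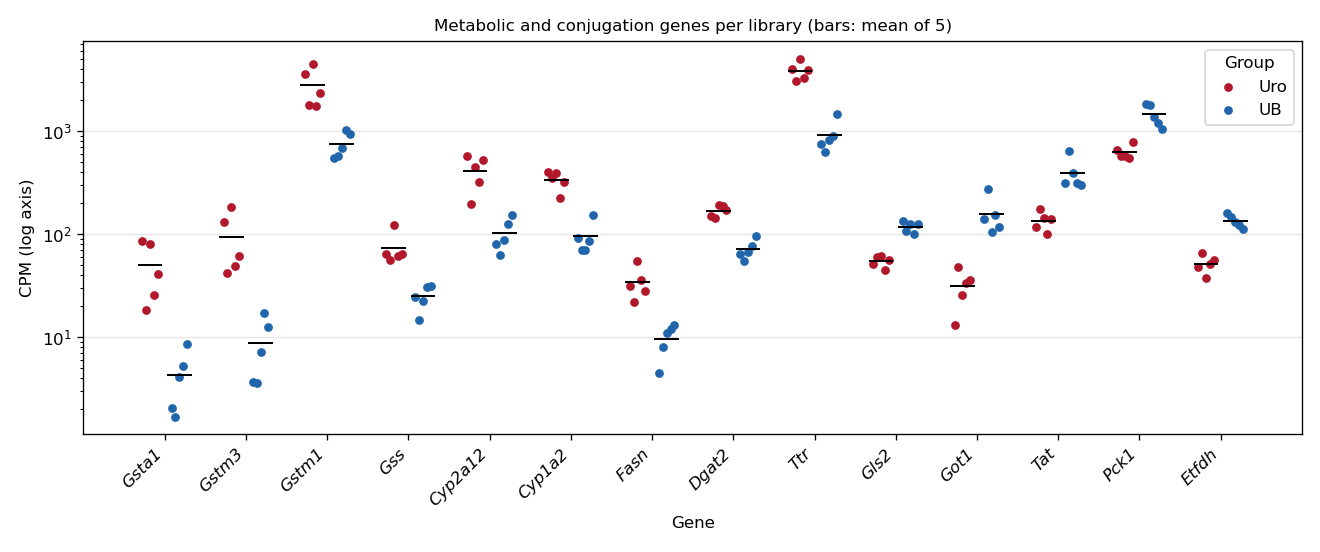
CPM per library (log axis) of 14 metabolic and conjugation genes in Uro (left of each pair) and UB, with bars at the mean of 5. The conjugation, P450 and lipid genes and Ttr on the left are higher in Uro, and Gls2, Got1, Tat, Pck1 and Etfdh on the right are lower, each without overlap between the groups.

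Of 25 genes that make fatty acids and triglycerides, 10 rose and 1 fell (median 0.40). Fasn, fatty acid synthase (ENSMUSG00000025153, chromosome 11, 120696672 to 120715995), had 31.2, 21.9, 54.8, 35.9 and 27.8 CPM in Uro livers, against 4.48, 7.97, 10.9, 11.8 and 13.1 CPM in UB livers. The highest UB library lay below the lowest Uro library (log2 fold change 1.83 ± 0.29, edgeR adjusted p = 9.30e-05). Srebf1, which encodes the SREBP factor that drives this pathway, had 27.7, 14.4, 28.6, 20.8 and 27.2 CPM in Uro livers, against 4.69, 3.64, 11.6, 7.54 and 12.3 CPM in UB livers, also without overlap (log2 fold change 1.58 ± 0.32, edgeR adjusted p = 0.00122). Further along the pathway, the desaturase Scd1 averaged 2654 ± 863 CPM in Uro and 966 ± 329 CPM in UB (edgeR adjusted p = 0.00294). The acetyl-CoA carboxylase Acaca averaged 21.4 ± 6.47 CPM in Uro and 11.6 ± 3.98 CPM in UB (edgeR adjusted p = 0.0079). Thrsp, a lipogenic nuclear protein, averaged 43.1 ± 25.6 CPM in Uro and 10.6 ± 5.02 CPM in UB (edgeR adjusted p = 0.00485). In HFD minus MC the fold changes were 1.16 for Fasn, 2.20 for Srebf1, 1.52 for Scd1 and 1.04 for Acaca, all of them called. Acaca lost its call in Uro minus UB without Uro replicate 3 (edgeR adjusted p = 0.0579).

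In 3 of the 25 members the fold change differed from that in HFD minus MC, namely Dgat2, Agpat2 and Fads2. Dgat2, the acyltransferase that completes triglyceride, had 149, 143, 189, 185 and 171 CPM in Uro livers, against 63.3, 54.6, 66.4, 76.2 and 95.0 CPM in UB livers (log2 fold change 1.23 ± 0.22, edgeR adjusted p = 0.000278), and its fold change in HFD minus MC was -0.005. Agpat2, which makes phosphatidic acid, rose by 0.90 against -0.22 in HFD minus MC. Fads2, a fatty acid desaturase, averaged 214 ± 56.0 CPM in Uro and 114 ± 29.1 CPM in UB (edgeR adjusted p = 0.00459). The differences between the comparisons were 1.24, 1.12 and 1.58 in log2 (edgeR adjusted p = 0.00599, 0.00247 and 0.000587). Dgat1, the other acyltransferase for the final step, averaged 13.05 ± 1.67 CPM in Uro and 11.8 ± 4.54 CPM in UB (edgeR adjusted p = 0.841) and was not called. Acly, which supplies cytosolic acetyl-CoA, was the member that fell, with 8.06 ± 2.07 CPM in Uro and 14.1 ± 4.86 CPM in UB (edgeR adjusted p = 0.0433), a call lost without Uro replicates 1, 3, 4 or 5 or UB replicates 1, 3 or 5 (edgeR adjusted p = 0.0755 to 0.126). When the mitochondrial share was a covariate, 4 members of the list were called higher and 0 lower.

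In cholesterol synthesis and uptake 8 of 26 members rose and 1 fell, with a median of 0.59. Tm7sf2, a sterol reductase of the late pathway, had 13.6, 15.1, 14.6, 14.5 and 13.9 CPM in Uro livers, against 7.13, 4.24, 5.04, 6.93 and 5.59 CPM in UB livers, so that its 5 Uro libraries lay within a narrow band above all UB libraries (log2 fold change 1.31 ± 0.26, edgeR adjusted p = 0.000802). It was called lower in HFD minus MC, at -1.31, and the difference of 2.62 was called (edgeR adjusted p = 2.55e-05). Tm7sf2, with 3236 counts in the Uro and UB libraries, overlaps Vps51, with 2876, on the same strand. How their shared reads were counted is not stated, so its level is uncertain. The isomerase Ebp and the desaturase Sc5d rose by 0.90 and 1.06 (edgeR adjusted p = 0.00545 and 0.00162). Hmgcs1, a synthase of the early pathway, was not called, with 33.3 ± 10.1 CPM in Uro and 31.2 ± 5.50 CPM in UB (edgeR adjusted p = 0.844). Pmvk, phosphomevalonate kinase, was the member that fell, with 1.79 ± 0.699 CPM in Uro and 3.69 ± 0.775 CPM in UB (edgeR adjusted p = 0.0338). The 8 calls were 4 without UB replicate 1, 5 without UB replicate 3, 4 without Uro replicate 3 and 0 with the mitochondrial share as covariate. Pmvk lost its call without Uro replicates 1, 3, 4 or 5 or UB replicates 1, 2 or 4 (edgeR adjusted p = 0.0605 to 0.11).

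Lipid droplet proteins and fatty acid uptake had 9 of 26 members higher and 0 lower (median 0.73). Bscl2, the seipin protein that shapes new lipid droplets, had 23.4, 22.9, 29.7, 23.4 and 24.5 CPM in Uro livers, against 11.1, 12.6, 12.8, 12.5 and 13.8 CPM in UB livers (log2 fold change 0.98 ± 0.18, edgeR adjusted p = 0.000345). Cideb, a droplet protein needed for lipoprotein export, had 109, 85.9, 218, 149 and 169 CPM in Uro livers, against 47.9, 48.6, 59.3, 74.1 and 79.9 CPM in UB livers, and its groups did not overlap (log2 fold change 1.24 ± 0.24, edgeR adjusted p = 0.000516). Cd36, a fatty acid transporter, averaged 66.0 ± 9.46 CPM in Uro and 39.03 ± 5.86 CPM in UB (edgeR adjusted p = 0.021), and lost its call without Uro replicate 5 or UB replicate 2 (edgeR adjusted p = 0.053 to 0.0613). Fabp1, the fatty acid binding protein of the liver, averaged 3416 ± 738 CPM in Uro and 1808 ± 216 CPM in UB (edgeR adjusted p = 0.0121). The droplet genes Plin2, Cidec and Cidea were not called. Plin2 averaged 308 ± 64.8 CPM in Uro and 221 ± 58.2 CPM in UB (edgeR adjusted p = 0.278). Cidec averaged 55.5 ± 19.6 CPM in Uro and 37.2 ± 18.4 CPM in UB (edgeR adjusted p = 0.456). Cidea averaged 5.22 ± 3.99 CPM in Uro and 1.01 ± 0.521 CPM in UB (edgeR adjusted p = 0.118) and was called, higher, without Uro replicate 1 (edgeR adjusted p = 0.0498). Plin2 fell in HFD minus MC, with -1.96 (edgeR adjusted p = 1.02e-05), and this differed from Uro minus UB by 2.44 (edgeR adjusted p = 9.29e-05). Without UB-NPs, in HFD minus MC, 1 member was higher and 8 lower, and 11 members differed between the comparisons in the positive direction. With the mitochondrial share as covariate 1 member was called.

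Apolipoproteins and lipoprotein handling genes had 8 of 21 members higher and 0 lower (median 0.73). Apoc2, the activator of lipoprotein lipase (ENSMUSG00000002992, chromosome 7, 19405504 to 19411877), had 284, 256, 311, 234 and 296 CPM in Uro livers, against 69.4, 56.4, 94.5, 139 and 136 CPM in UB livers (log2 fold change 1.48 ± 0.23, edgeR adjusted p = 6.80e-05). It overlaps the gene Apoc2l on the same strand, and how their shared reads were counted is not stated. Apoc3, an inhibitor of lipoprotein clearance, averaged 2042 ± 471 CPM in Uro and 757 ± 273 CPM in UB (edgeR adjusted p = 0.00307). Apoe, a ligand of lipoprotein receptors, averaged 23242 ± 4949 CPM in Uro and 11031 ± 2442 CPM in UB (edgeR adjusted p = 0.011). Apoa1, the scaffold of HDL particles, averaged 6474 ± 1641 CPM in Uro and 3035 ± 889 CPM in UB (edgeR adjusted p = 0.00712). In each of the 3 genes the groups did not overlap. Of the 21 members 12 differed from HFD minus MC, all in the positive direction, and 2 were called with the mitochondrial share as covariate.

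Of 28 genes of bile acid synthesis and transport 8 rose and 1 fell (median 0.67). Slc10a1, which takes bile acids up from blood, had 106, 88.6, 91.6, 119 and 159.8 CPM in Uro livers, against 65.2, 39.8, 42.8, 43.3 and 60.6 CPM in UB livers (log2 fold change 1.17 ± 0.24, edgeR adjusted p = 0.0011). Its fold change in HFD minus MC was -1.46, and the difference of 2.62 was called (edgeR adjusted p = 8.64e-06). The canalicular exporter Abcc2 averaged 132 ± 27.2 CPM in Uro and 57.9 ± 8.80 CPM in UB (edgeR adjusted p = 0.00041). Abcb11, the bile salt export pump, averaged 119 ± 31.1 CPM in Uro and 53.4 ± 9.16 CPM in UB (edgeR adjusted p = 0.00235). Slc51a, a subunit of the basolateral exporter, averaged 11.9 ± 3.55 CPM in Uro and 2.40 ± 0.837 CPM in UB, and Cyp2c70, the mouse enzyme that makes muricholic acids, 23.9 ± 10.8 CPM in Uro and 6.24 ± 2.31 CPM in UB (edgeR adjusted p = 0.00433 and 6.55e-05). Slc51a overlaps Pcyt1a, which has more counts, on the other strand. The rate-limiting enzyme of synthesis, Cyp7a1, was not called, with 25.3 ± 9.60 CPM in Uro and 19.3 ± 7.96 CPM in UB (edgeR adjusted p = 0.671). Akr1d1, a reductase of bile acid synthesis, was the member that fell, with 29.2 ± 14.7 CPM in Uro and 58.1 ± 24.5 CPM in UB (edgeR adjusted p = 0.0231). That call was lost without Uro replicates 3 or 4 or UB replicate 1 (edgeR adjusted p = 0.0739 to 0.128), and 1 member of the list was called, higher, with the mitochondrial share as covariate.

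Of 38 genes for breaking down amino acids and making urea 12 fell and 0 rose (median -0.41), while in TPM 2 fell and the median was 0.17 against 0.22 for all genes. Got1, the cytosolic aspartate aminotransferase (ENSMUSG00000025190, chromosome 19, 43488188 to 43513674), had 12.96, 47.8, 25.5, 33.4 and 35.7 CPM in Uro livers, against 141, 270.4, 104, 154 and 116 CPM in UB livers. The highest Uro library was below the lowest UB library (log2 fold change -2.34 ± 0.37, edgeR adjusted p = 0.000122). Tat, which starts tyrosine breakdown and responds to glucocorticoids and fasting, had 117, 174, 143, 99.1 and 139.8 CPM in Uro livers, against 314, 637, 387, 313 and 298 CPM in UB livers (log2 fold change -1.53 ± 0.26, edgeR adjusted p = 0.000153, 0.0568 in TPM). Gls2, the liver glutaminase, had 51.0, 60.0, 61.7, 44.6 and 56.1 CPM in Uro livers, against 132, 106, 125, 98.9 and 125 CPM in UB livers (log2 fold change -1.10 ± 0.17, edgeR adjusted p = 6.55e-05, 0.487 in TPM). Sds, serine dehydratase, Cth, which makes cysteine, and Gnmt, which disposes of methyl groups, fell by 1.30, 1.22 and 1.54 in log2 (edgeR adjusted p = 0.000812, 0.00342 and 0.00458). Of the cycle enzymes proper, Arg1, the arginase, averaged 346 ± 102 CPM in Uro and 558 ± 68.5 CPM in UB (edgeR adjusted p = 0.0345). Asl, which splits argininosuccinate, averaged 309 ± 84.7 CPM in Uro and 598 ± 200.4 CPM in UB (edgeR adjusted p = 0.0218). Cps1, which feeds ammonia into the cycle, was not called and averaged 216 ± 52.9 CPM in Uro and 192 ± 54.7 CPM in UB (edgeR adjusted p = 0.696). Arg1 lost its call without Uro replicates 1, 2, 3 or 4 or UB replicates 1, 2 or 3 (edgeR adjusted p = 0.0527 to 0.107), and Asl without Uro replicates 1 or 4 or UB replicate 2 (edgeR adjusted p = 0.0658 to 0.11). Of the 38 members 24 were lower and 1 higher in HFD minus MC, with a median of -0.82. When the mitochondrial share was a covariate, 13 members were called lower in Uro minus UB.

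Glucose genes split by direction, with 5 of 28 higher and 4 lower, and in TPM 10 higher and 1 lower (median 0.31 against 0.22 for all genes). Genes of glucose use and glycogen breakdown were among those that rose. The pyruvate kinase Pklr had 29.3, 35.3, 98.4, 104 and 56.0 CPM in Uro livers, against 14.4, 7.71, 14.3, 18.0 and 27.7 CPM in UB livers. Its groups did not overlap, with UB replicate 2 lowest (log2 fold change 1.97 ± 0.37, edgeR adjusted p = 0.000739). The glucose transporter Slc2a2 and the glycogen phosphorylase Pygl rose by 0.91 and 1.04 (edgeR adjusted p = 0.00842 and 0.000585). The 4 that fell were Pck1, Fbp1, Gcgr and Ppp1r3g. Pck1, which commits carbon to gluconeogenesis (ENSMUSG00000027513, chromosome 2, 172994744 to 173001066), had 649, 569.8, 574, 542 and 774 CPM in Uro livers, against 1828, 1791, 1375, 1186 and 1037 CPM in UB livers (log2 fold change -1.22 ± 0.20, edgeR adjusted p = 0.000108, 0.0801 in TPM). Fbp1, a bisphosphatase of the same pathway, averaged 152 ± 45.6 CPM in Uro and 293 ± 47.5 CPM in UB (edgeR adjusted p = 0.0105). The glucagon receptor Gcgr averaged 168 ± 62.6 CPM in Uro and 338 ± 68.2 CPM in UB (edgeR adjusted p = 0.0176). In TPM neither was called (limma adjusted p = 0.338 for Fbp1 and 0.303 for Gcgr). Ppp1r3g, which brings phosphatase to glycogen, fell by 3.08 on the log2 scale, and UB replicate 2 was far above the rest (edgeR adjusted p = 0.0132). It lost its call without UB replicate 2 (edgeR adjusted p = 0.104), and Gcgr without Uro replicates 3, 4 or 5 or UB replicate 2 (edgeR adjusted p = 0.0529 to 0.0545). Pklr also rose in HFD minus MC, by 1.05. Fbp1 had -1.81 there and fell, and Pck1 was not called at -0.32 (edgeR adjusted p = 0.0403, 7.20e-06 and 0.262). Without UB replicate 2 the 4 lower calls were 2. Adjusted for the mitochondrial share, there were 2 higher and 1 lower.

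Fatty acid oxidation and ketone body synthesis had 3 of 41 members higher and 5 lower (median 0.04), and in TPM 6 higher and 1 lower (median 0.44 against 0.22 for all genes). Etfdh, which passes electrons from oxidation to the respiratory chain, had 48.1, 64.6, 37.7, 50.8 and 56.2 CPM in Uro livers, against 158, 146, 130.4, 121 and 111 CPM in UB livers (log2 fold change -1.37 ± 0.24, edgeR adjusted p = 0.000166). Ppara, the nuclear receptor that drives this programme, had 6.94, 11.1, 6.27, 8.75 and 9.02 CPM in Uro livers, against 24.9, 30.7, 26.7, 24.05 and 29.8 CPM in UB livers (log2 fold change -1.70 ± 0.24, edgeR adjusted p = 2.01e-05). In the deposited TPM, however, Ppara was 25 ± 6.52 in Uro and 26.2 ± 13.5 in UB (SD, n = 5 each), so its fall rests on the count table alone. Acat1, a thiolase, fell by 0.87 in counts and was higher, without a call, in TPM. Its TPM were 88.1 ± 22.6 in Uro and 67.0 ± 6.33 in UB (SD, n = 5 each). Cpt1a, the entry enzyme of mitochondrial oxidation, averaged 133 ± 29.3 CPM in Uro and 109.5 ± 20.7 CPM in UB (edgeR adjusted p = 0.326). It was not called. In HFD minus MC, by contrast, 31 of the 41 members were lower and 0 higher (median -1.09), and 23 members were more positive in Uro minus UB by the test of the difference, with 1 more negative. The count of 3 higher was 1 without any 1 of UB replicates 1, 2 or 3 or Uro replicate 2. With the mitochondrial share as covariate, there were 0 higher and 4 lower.

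Mitochondrially encoded proteins were lower in Uro in 12 of 13 genes, none higher, with a median of -1.53. mt-Co2, a subunit of cytochrome oxidase, had 98.4, 128, 102, 125 and 122 CPM in Uro livers, against 942, 275, 531, 376 and 415 CPM in UB livers (log2 fold change -2.14 ± 0.33, edgeR adjusted p = 6.94e-05). The member without a call was mt-Atp8, with 213 ± 109 CPM in Uro and 476 ± 114 CPM in UB (edgeR adjusted p = 0.0644). It overlaps mt-Atp6, which has more counts, on the same strand, and was called without Uro replicate 1 (edgeR adjusted p = 0.032). These genes are part of the mitochondrial share itself, and with that share as a covariate 0 were called. Of 74 nuclear genes for subunits of the same respiratory chain 14 rose, 1 fell and 59 were not called (median 0.36). Cox6a1, a nuclear subunit of cytochrome oxidase, had 229.6, 194, 390.1, 250.1 and 272 CPM in Uro livers, against 66.1, 83.8, 92.8, 146 and 117 CPM in UB livers (log2 fold change 1.40 ± 0.32, edgeR adjusted p = 0.00322). Cox4i1, another, averaged 537 ± 108 CPM in Uro and 272 ± 63.7 CPM in UB (edgeR adjusted p = 0.00652). Sdhd, a membrane subunit of succinate dehydrogenase, was the one that fell, with 35.5, 39.2, 27.9, 33.9 and 37.2 CPM in Uro livers, against 88.5, 87.6, 71.6, 75.9 and 69.4 CPM in UB livers (edgeR adjusted p = 0.000341, 0.068 in TPM). Of the 74, 53 were lower and 1 higher in HFD minus MC. The 2 comparisons differed in 56 genes, all more positive in Uro minus UB. The 14 calls were 7 to 9 without UB replicates 1, 2 or 3 or Uro replicates 1, 3 or 5, and 0 with the mitochondrial share as covariate.

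Few ribosomal protein genes were called, where 6.99% of all genes were higher and 6.59% lower. Of 79 cytosolic ones 4 rose and 0 fell, Rpl27 among them with 156 ± 29.0 CPM in Uro and 94.0 ± 18.6 CPM in UB (edgeR adjusted p = 0.00556). The 4 were 2 without UB replicate 1 or Uro replicate 4. Of 78 mitochondrial ones 1 rose and 3 fell, Mrps31 among them with 6.98 ± 1.53 CPM in Uro and 12.5 ± 2.11 CPM in UB (edgeR adjusted p = 0.003, 0.291 in TPM). Without UB-NPs, in HFD minus MC, 17 of the cytosolic and 47 of the mitochondrial ones were lower, and 18 and 32 were more positive in Uro minus UB by the test of the difference.

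Interferon response genes were the list with the most falls, 26 of 42 measured members, with 2 higher and 14 not called (median -1.14). Ifit3, an interferon-induced protein with tetratricopeptide repeats, had 9.92, 6.14, 8.51, 12.9 and 16 CPM in Uro livers, against 45.1, 11.6, 91.2, 17.7 and 16.7 CPM in UB livers (log2 fold change -1.77 ± 0.40, edgeR adjusted p = 0.00386). UB replicate 3 was highest by far, UB replicate 1 came next, and the other 3 UB libraries reached into or near the Uro range. Gbp3, a guanylate-binding protein, had 5.99, 5.65, 3.84, 5.83 and 8.39 CPM in Uro livers, against 20.3, 9.70, 53.0, 9.41 and 5.79 CPM in UB livers, with UB replicates 3 and 1 again highest (log2 fold change -1.73 ± 0.43, edgeR adjusted p = 0.00749). Irgm1, a GTPase of cell-autonomous immunity, had 24.1, 11.9, 13.7, 18.1 and 22.5 CPM in Uro livers, against 35.2, 12.8, 154, 19.6 and 21.4 CPM in UB livers, where UB replicates 2, 4 and 5 lay within the Uro range (log2 fold change -1.43 ± 0.42, edgeR adjusted p = 0.022). Irf9, the DNA-binding part of the complex that carries the type I interferon signal, had 12.7, 11.1, 10.6, 10.1 and 11.2 CPM in Uro livers, against 20.7, 18.4, 36.9, 22.4 and 19.99 CPM in UB livers, without overlap (log2 fold change -1.09 ± 0.22, edgeR adjusted p = 0.000763). Stat2, its partner, averaged 19.9 ± 6.24 CPM in Uro and 40.3 ± 21.4 CPM in UB (edgeR adjusted p = 0.042). In both genes UB replicate 3 was the highest library. Irf9, with 4846 counts in the Uro and UB libraries, overlaps Rnf31, with 3562, on the same strand, so its level is less certain. Stat2 lost its call without Uro replicates 2, 3, 4 or 5 or UB replicates 1 or 3 (edgeR adjusted p = 0.0621 to 0.212), Irgm1 without Uro replicates 2 or 3 or UB replicate 3 (edgeR adjusted p = 0.0538 to 0.455) and Gbp3 without UB replicate 3 (edgeR adjusted p = 0.0608). Mx1, an antiviral GTPase, had 1.89, 1.94, 1.49, 2.49 and 1.56 CPM in Uro livers, against 6.88, 2.73, 8.99, 4.30 and 4.42 CPM in UB livers, again with no overlap (log2 fold change -1.54 ± 0.37, edgeR adjusted p = 0.00458).

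Summed over the list, the Uro libraries held 546.8 to 823.7 CPM and the UB libraries 537.9 to 2575 CPM, so the levels overlapped. Every Uro library was below every UB library in 3 of the 42 members, near the 6.74% of all genes. Every one was above in 1 member, against 8.05% of all genes. The count of 26 was 8 without UB replicate 3, with a median of -0.58, and 17 without UB replicate 1. It was 17 without Uro replicate 2, 16 without Uro replicate 3, 13 when the Uro and UB libraries were fitted alone, 4 in TPM (median -0.41, against 0.22 for all genes) and 0 with the mitochondrial share as covariate, when the median was -0.96. In HFD minus MC 4 of the genes were higher and 0 lower. The 2 comparisons differed in 26 genes, 24 of them more negative in Uro minus UB, where 3.75% of all genes differed in that direction. Mx1 was higher in HFD minus MC by 1.42 (edgeR adjusted p = 0.0065), a difference of -2.96 (edgeR adjusted p = 0.000227). Between the standard diet groups, NFD minus NC, 22 members were lower and 0 higher, where 15.2% of all genes were called, 9.01% higher and 6.18% lower.

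The members that rose were Bst2 and Ifi27. Bst2, the tetherin that holds budding virus at the cell surface (ENSMUSG00000046718, chromosome 8, 71986895 to 71990114), had 197, 103, 260.4, 158 and 149 CPM in Uro livers, against 42.1, 22.4, 70.8, 55.9 and 62.2 CPM in UB livers, with no overlap (log2 fold change 1.77 ± 0.27, edgeR adjusted p = 5.11e-05). Its difference from HFD minus MC was 2.00 (edgeR adjusted p = 0.00039). Ifi27, an interferon-induced membrane protein, averaged 100.5 ± 24.1 CPM in Uro and 58.4 ± 17.8 CPM in UB (edgeR adjusted p = 0.00937), and lost its call without Uro replicate 3 (edgeR adjusted p = 0.0565).

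Promoters of the interferon response genes are shown for the core of the interferon-stimulated response element. It was searched on both strands as GAAA, 2 bases of any kind and GAAA, where matches may overlap. The windows run from 250 bases before to 50 after each transcript start (RefSeq, GRCm38.p6), and 31 of the 42 genes had one or more. The motif was in 16 of 36 windows of the list (44.4%) and in 1131 of all 32851 windows (3.44%). The list was chosen for its response to interferon, so this share describes the list and not the falls in Uro. By gene it was found for 11 of the 20 that fell, for Bst2, the 1 with a window among those that rose, and for 4 of the 10 not called. Among genes with a match, 3 that fell and the 1 that rose are printed 5′ to 3′ in the direction of the gene, with the matches in capitals. They were chosen after their values were seen. The windows are chr19:34640639-34640938, plus strand for Ifit1, chr19:34583279-34583578, plus strand for Ifit3, chr3:142559794-142560093, plus strand for Gbp3 and chr8:71537423-71537722, minus strand for Bst2.
Ifit1: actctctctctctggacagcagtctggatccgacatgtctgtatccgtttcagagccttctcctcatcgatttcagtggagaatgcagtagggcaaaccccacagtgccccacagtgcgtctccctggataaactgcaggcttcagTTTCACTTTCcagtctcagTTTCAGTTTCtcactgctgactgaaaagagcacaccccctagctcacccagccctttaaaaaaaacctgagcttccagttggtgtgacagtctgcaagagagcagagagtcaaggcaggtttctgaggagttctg
Ifit3: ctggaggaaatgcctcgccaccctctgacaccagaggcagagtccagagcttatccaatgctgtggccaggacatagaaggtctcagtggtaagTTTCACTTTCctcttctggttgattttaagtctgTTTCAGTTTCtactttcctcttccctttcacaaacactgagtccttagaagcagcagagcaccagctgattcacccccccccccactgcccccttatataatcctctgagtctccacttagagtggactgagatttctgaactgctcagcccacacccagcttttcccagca
Gbp3: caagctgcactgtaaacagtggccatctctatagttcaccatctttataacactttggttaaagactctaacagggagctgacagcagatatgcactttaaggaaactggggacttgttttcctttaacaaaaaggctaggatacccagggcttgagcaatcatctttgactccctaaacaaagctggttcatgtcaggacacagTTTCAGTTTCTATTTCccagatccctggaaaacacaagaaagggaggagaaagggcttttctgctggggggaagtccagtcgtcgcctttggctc
Bst2: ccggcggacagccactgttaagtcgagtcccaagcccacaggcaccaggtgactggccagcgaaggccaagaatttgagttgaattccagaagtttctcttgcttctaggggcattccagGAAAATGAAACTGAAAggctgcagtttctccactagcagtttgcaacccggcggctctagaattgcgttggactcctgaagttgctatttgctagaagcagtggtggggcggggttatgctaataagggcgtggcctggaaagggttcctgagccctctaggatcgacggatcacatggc
In Ifit1, whose level averaged 7.97 ± 3.55 CPM in Uro and 24.4 ± 22.1 CPM in UB (SD, n = 5 each), and in Ifit3 the windows hold 2 separate matches each, and in Gbp3 and Bst2 2 that overlap. The Bst2 window thus holds the same letters as those of genes that fell, which describes these windows and not the binding of any factor.

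**Figure D4:**
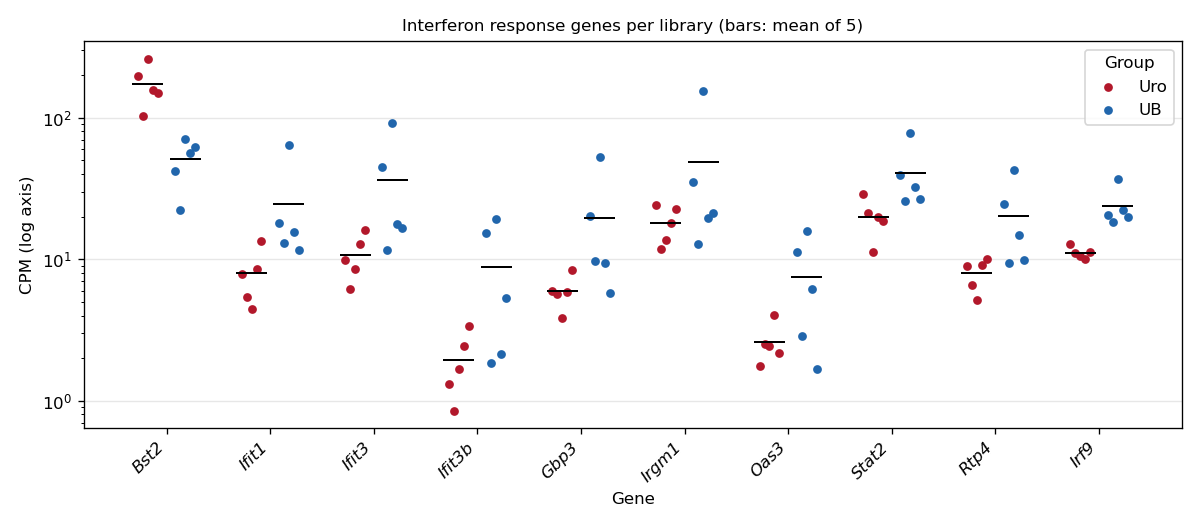
CPM per library (log axis) of 10 interferon response genes in Uro (left of each pair) and UB, with bars at the mean of 5. Bst2 is higher in Uro, and for the other 9 the highest point is a UB library, at 91.2 CPM for Ifit3 and 154 CPM for Irgm1, with several UB libraries close to the Uro range.

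Of 10 genes of MHC class II presentation 4 rose and 0 fell (median 0.75). Cd74, the invariant chain, had 127, 171, 274, 279 and 159.6 CPM in Uro livers, against 53.7, 49.5, 91.9, 109 and 79.9 CPM in UB livers (log2 fold change 1.39 ± 0.28, edgeR adjusted p = 0.000876), and H2-Ab1, H2-Aa and H2-Eb1 rose by 1.03, 1.07 and 1.22 (edgeR adjusted p = 0.0184, 0.00458 and 0.00402). H2-Aa and H2-Eb1 overlap each other on opposite strands, and H2-Ab1 lost its call without Uro replicates 3 or 4 or UB replicates 1 or 2 (edgeR adjusted p = 0.0556 to 0.0668). HFD minus MC also had 4 of the 10 higher, and 0 of the 10 differed between the comparisons. Adjusted for the mitochondrial share, 0 class II genes were called, with a median of 1.00. Of 18 markers of lipid-associated and infiltrating macrophages 5 rose and 0 fell (median 0.98). They were the lysosomal proteases Ctsb and Ctsd, the tetraspanins Cd9 and Cd63, and Trem2, a lipid receptor of these macrophages. Ctsb averaged 373 ± 53.0 CPM in Uro and 188 ± 26.2 CPM in UB (edgeR adjusted p = 0.00187), and the adjusted p of Ctsd, Cd9 and Cd63 were 0.00565, 0.00247 and 0.00722 (edgeR). Trem2 had 6.85, 8.86, 15.6, 13.5 and 7.82 CPM in Uro livers, against 1.53, 1.08, 3.39, 7.58 and 5.19 CPM in UB livers (edgeR adjusted p = 0.0362). Trem2 lost its call without Uro replicates 3 or 4 or UB replicates 1, 2 or 3 (edgeR adjusted p = 0.0771 to 0.108). Ctsb, Ctsd, Cd9 and Cd63 are also expressed by hepatocytes. The more specific Gpnmb averaged 11.6 ± 5.67 CPM in Uro and 4.81 ± 2.51 CPM in UB (edgeR adjusted p = 0.283) and was called, higher, in TPM (limma adjusted p = 0.0201). Spp1 averaged 115 ± 73.5 CPM in Uro and 37.4 ± 52.3 CPM in UB (edgeR adjusted p = 0.204) and was called, higher, without UB replicate 4 (edgeR adjusted p = 0.0149). In TPM 11 of the 18 were higher. The 18 genes summed to 898 to 1462 CPM in Uro and 513 to 794 CPM in UB. When the mitochondrial share was a covariate, 6 were called higher in Uro minus UB. In HFD minus MC 4 of the 18 were higher and 1 lower (median 1.28). By the test of the difference 1 of the 18 differed between the comparisons, more positive in Uro minus UB. In such bulk tissue, fewer cells of a type and less RNA per cell cannot be told apart.

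Calls in resident cell types are to be read beside 6.99% of all genes higher and 6.59% lower. In TPM 3031 of all 14785 genes were higher. Of 17 Kupffer cell markers 1 rose, C6, which hepatocytes also make, and 0 fell. Their sum was 367 to 538 CPM in Uro and 343 to 611 CPM in UB. Of the defining Kupffer genes, Clec4f averaged 54.4 ± 23.5 CPM in Uro and 74.8 ± 33.4 CPM in UB (edgeR adjusted p = 0.416). Timd4 averaged 1.26 ± 0.909 CPM in Uro and 3.55 ± 2.24 CPM in UB (edgeR adjusted p = 0.0618) and was called, lower, without Uro replicate 2 or UB replicate 4 (edgeR adjusted p = 0.0201 to 0.0237). Of 18 T and NK cell markers, 20 sinusoidal endothelial markers, 6 adipose markers and 13 markers of blood, muscle and pancreas, none was called by edgeR, and at an unadjusted p under 0.05 these lists had 0, 4, 2 and 2 members. DESeq2 called 1 of the last list, and TPM 5, 7, 3 and 0. Without Uro replicate 1 edgeR called 2 adipose markers, and without Uro replicate 5 it called 3 markers of blood, muscle and pancreas lower. The T and NK markers summed to 22.2 to 34.8 CPM in Uro and 16.3 to 26.6 CPM in UB, and Cd3e, of the T cell receptor complex, averaged 0.673 ± 0.186 CPM in Uro and 0.293 ± 0.120 CPM in UB (edgeR adjusted p = 0.439). The endothelial markers summed to 197 to 332 CPM in Uro and 227 to 262 CPM in UB. Among 12 markers of B cells, plasma cells and neutrophils, the immunoglobulin chains Igkc and Ighm rose, Igkc with 19.1, 35.5, 29.1, 41.3 and 33.6 CPM in Uro livers, against 6.62, 8.31, 2.87, 10.9 and 9.65 CPM in UB livers (edgeR adjusted p = 0.00293 and 0.00478). Pax5, a B cell factor, fell with 0.795 ± 0.778 CPM in Uro and 2.64 ± 1.36 CPM in UB (edgeR adjusted p = 0.0332), a call lost without Uro replicates 1, 3, 4 or 5 or UB replicates 1, 2 or 3 (edgeR adjusted p = 0.0512 to 0.126). Stellate cell and collagen genes had 1 of 29 called, Timp1, an inhibitor of matrix proteases, with 2.47 ± 1.54 CPM in Uro and 0.603 ± 0.389 CPM in UB (edgeR adjusted p = 0.0333), which lost its call without Uro replicates 3, 4 or 5 or UB replicates 1, 2, 4 or 5 (edgeR adjusted p = 0.0541 to 0.154). Col1a1, the main fibrillar collagen, averaged 36.5 ± 25.5 CPM in Uro and 11.1 ± 6.37 CPM in UB and was not called (edgeR adjusted p = 0.058), although it was, higher, without Uro replicates 1 or 2 or UB replicate 5 (edgeR adjusted p = 0.0359 to 0.0477). Of 32 cytokines and chemokines 1 rose, Cxcl14, with 3.09 ± 1.13 CPM in Uro and 0.874 ± 0.531 CPM in UB (edgeR adjusted p = 0.0113). The inflammatory genes Tnf, Il1b and Ccl2 were not called. Tnf averaged 0.280 ± 0.200 CPM in Uro and 0.247 ± 0.340 CPM in UB (edgeR adjusted p = 0.955), Il1b averaged 0.738 ± 0.503 CPM in Uro and 1.79 ± 1.30 CPM in UB (edgeR adjusted p = 0.102), and Ccl2 averaged 1.10 ± 0.695 CPM in Uro and 1.12 ± 1.08 CPM in UB (edgeR adjusted p = 0.993). Il1b was called, lower, without Uro replicate 2 or UB replicate 5 (edgeR adjusted p = 0.032 to 0.0384). Of the 32 cytokines and chemokines 9 were higher and 1 lower in HFD minus MC. By the test of the difference 3 were more negative in Uro minus UB and 0 more positive.

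Of 13 cholangiocyte markers Krt8, a keratin that hepatocytes also make, rose by 1.34, and Onecut1, a factor of biliary and hepatocyte development, fell by 1.87 (edgeR adjusted p = 0.000309 and 0.00972). Their count of rises was 5 without UB replicate 4. Of 30 cell cycle genes (median 0.90, in TPM 0.46 with 16 higher and 0 lower) Ccnb2, a mitotic cyclin, and Cdc20, which overlaps the more abundant Elovl1, were called higher, and 0 were called without UB replicate 2, UB replicate 3, Uro replicate 1 or Uro replicate 3, and 1 without UB replicate 4 or 5. Of 30 immediate-early genes Jun and Myc, both transcription factors, rose by 1.03 and 1.59 (edgeR adjusted p = 0.00505 and 0.0331), and 1 call was left without UB replicate 2, UB replicate 3, Uro replicate 3 or Uro replicate 4. Nuclear-retained long RNAs had 3 of 10 lower: Neat1, the scaffold of paraspeckles, with 103 ± 33.8 CPM in Uro and 299.9 ± 186 CPM in UB, Kcnq1ot1 and Snhg12 (edgeR adjusted p = 0.0166, 0.00351 and 0.0273). That count was 1 without UB replicate 2 or Uro replicate 3.

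Of 20 hepatocyte markers 4 rose, 1 fell and 15 were not called (median 0.32). With the mitochondrial share as covariate 0 of them rose and 1 fell. Among secreted proteins of hepatocytes, Ttr and Alb rose. Ttr, transthyretin, a carrier of thyroid hormone and retinol, had 3963, 3036, 4976, 3280.5 and 3930.1 CPM in Uro livers, against 749.8, 619.5, 816, 896 and 1474 CPM in UB livers (log2 fold change 2.07 ± 0.30, edgeR adjusted p = 2.26e-05). The lowest Uro library had more than any UB library. In HFD minus MC it was not called, at -0.72, and the difference of 2.80 was (edgeR adjusted p = 3.34e-05). Alb, serum albumin, averaged 23109 ± 5432 CPM in Uro and 11020.2 ± 3425 CPM in UB (edgeR adjusted p = 0.00752). Of 42 complement and coagulation genes 11 rose and 0 fell (median 0.39), led by Mbl2, a mannose-binding lectin, with 183, 104, 182, 116 and 120.1 CPM in Uro livers, against 66.2, 37.4, 45.9, 34.5 and 69.9 CPM in UB livers (edgeR adjusted p = 0.000122). C8g, of the terminal complement complex, and F12, a coagulation factor, rose by 1.28 and 0.85 (edgeR adjusted p = 0.000816 and 0.00336). Of the 42, 3 were higher and 15 lower in HFD minus MC, and 17 were more positive in Uro minus UB by the test of the difference. Of 26 acute phase genes 6 rose, and Il1rn, an antagonist of interleukin-1, fell by 1.11 in log2 (edgeR adjusted p = 0.0223), a call lost without Uro replicates 1 or 2 or UB replicates 1 or 3 (edgeR adjusted p = 0.0603 to 0.077). Apcs, serum amyloid P, averaged 40.1 ± 5.10 CPM in Uro and 17.2 ± 8.10 CPM in UB (edgeR adjusted p = 0.00153). Hpx, hemopexin, averaged 3478 ± 1004 CPM in Uro and 1541 ± 549 CPM in UB (edgeR adjusted p = 0.0075), and Lcn2, lipocalin, averaged 45.1 ± 24.4 CPM in Uro and 9.78 ± 5.66 CPM in UB (edgeR adjusted p = 0.0277). Saa1, a strong responder to inflammation, averaged 111 ± 100.2 CPM in Uro and 44.2 ± 48.3 CPM in UB (edgeR adjusted p = 0.194) and was called, higher, without UB replicate 3 (edgeR adjusted p = 0.026). Lcn2 lost its call without Uro replicates 3 or 4 or UB replicates 1, 2 or 5 (edgeR adjusted p = 0.0513 to 0.079). The 11 complement calls were 6 without UB replicate 2, 7 without UB replicate 4, Uro replicate 1 or Uro replicate 3, and 1 with the mitochondrial share as covariate. The 6 acute phase calls were 3 without UB replicate 2 or 5, and 0 with that covariate.

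Pericentral hepatocyte markers had 4 of 17 higher and 0 lower (median 0.48), among them Cyp1a2, Cyp2e1 and Gulo, with 184 ± 10.2 CPM in Uro and 80.2 ± 26.5 CPM in UB (edgeR adjusted p = 0.00339). Glul, the glutamine synthetase of the innermost pericentral layer, averaged 924 ± 135 CPM in Uro and 1014 ± 59.9 CPM in UB and was not called (edgeR adjusted p = 0.756). Periportal markers had 2 of 16 higher and 5 lower (median -0.52, in TPM 0.23 with 0 lower against 0.22 for all genes), and the falls were Aldh1b1, with 7.76 ± 1.60 CPM in Uro and 18.3 ± 3.99 CPM in UB, and Pck1, Gls2, Sds and Arg1, described above (edgeR adjusted p = 0.000427 for Aldh1b1, 0.0549 in TPM). The periportal genes that rose were Hsd17b13, a lipid droplet enzyme, and Cyp2f2 (edgeR adjusted p = 0.00761 and 0.0237), and Cyp2f2 lost its call without Uro replicates 1 or 3 or UB replicates 2 or 4 (edgeR adjusted p = 0.061 to 0.0837). The 4 pericentral calls were 2 without UB replicate 2, UB replicate 3 or Uro replicate 5, and with the mitochondrial share as covariate there were 0 higher and 1 lower. The 2 periportal rises were 1 without UB replicate 2, Uro replicate 1 or Uro replicate 3.

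Among stress and signalling lists, endoplasmic reticulum stress and chaperone genes had 7 of 37 higher and 0 lower (median 0.40). Manf, a secreted stress protein, had 22.8, 20.7, 33.5, 21.8 and 18.6 CPM in Uro livers, against 12.2, 10.7, 11.1, 10.9 and 10.7 CPM in UB livers (log2 fold change 1.08 ± 0.19, edgeR adjusted p = 0.000199). Atf6, a sensor of unfolded protein, and Herpud1, of protein disposal, rose by 1.09 and 1.04 (edgeR adjusted p = 0.00357 and 0.00278). The count was 3 without UB replicate 2, Uro replicate 3 or Uro replicate 4, 4 without Uro replicate 5, and 0 with the mitochondrial share as covariate. Glucocorticoid-responsive genes had 5 of 16 lower and 1 higher (median -0.32, in TPM 0.06 with 0 lower), among them Fkbp5 and Errfi1. Fkbp5, a chaperone of the receptor, averaged 12.6 ± 2.86 CPM in Uro and 22.3 ± 6.61 CPM in UB (edgeR adjusted p = 0.00876), and Errfi1, an inhibitor of growth factor receptors, averaged 236 ± 58.0 CPM in Uro and 416 ± 93.6 CPM in UB (edgeR adjusted p = 0.00788). In TPM their adjusted p were 0.279 and 0.469 (limma). Their count of falls was 3 without UB replicate 2, UB replicate 3 or Uro replicate 4, and Fkbp5 lost its call without UB replicate 3 (edgeR adjusted p = 0.0503). Autophagy genes split, with 6 of 31 lower, and 4 lysosomal or regulatory genes higher. Gabarapl1, a protein of the autophagosome that fell, averaged 140.3 ± 25.02 CPM in Uro and 299 ± 61.5 CPM in UB (edgeR adjusted p = 0.00166). Lamp1, a lysosomal membrane protein that rose, averaged 221 ± 18.7 CPM in Uro and 116 ± 21.4 CPM in UB (edgeR adjusted p = 0.00314). In TPM 9 were higher and 0 lower, and the 6 falls were 3 without UB replicate 2 or Uro replicate 3. Of 23 clock genes 1 was called, Per2, with 10.8 ± 4.53 CPM in Uro and 4.14 ± 2.15 CPM in UB (edgeR adjusted p = 0.0405), a call lost without Uro replicates 1, 4 or 5 or UB replicates 1, 2, 3 or 5 (edgeR adjusted p = 0.0607 to 0.127). Per3 averaged 9.88 ± 2.65 CPM in Uro and 9.06 ± 1.78 CPM in UB (edgeR adjusted p = 0.884), and Dbp averaged 96.2 ± 16.1 CPM in Uro and 75.2 ± 6.76 CPM in UB (edgeR adjusted p = 0.799). Per3 was higher in HFD minus MC by 2.23 (edgeR adjusted p = 0.000279).

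Genes with a male bias in mouse liver, which depend on the pattern of growth hormone, had 6 of 21 higher and 1 lower in Uro minus UB (median 0.10), the 1 being the glucuronosyltransferase Ugt2b38 at -1.89 ± 0.59 (edgeR adjusted p = 0.0335), a call lost without Uro replicates 1, 3, 4 or 5 or UB replicates 1, 2, 3 or 5 (edgeR adjusted p = 0.0551 to 0.0935), against 0 higher and 18 lower in HFD minus MC (median -2.21). By the test of the difference 15 of the 21 were more positive in Uro minus UB. Mup20, a major urinary protein, had 18558, 4594, 5227, 6891 and 7087 CPM in Uro livers, against 2420.5, 1348, 1282, 3100.2 and 2607 CPM in UB livers, with Uro replicate 1 far above the rest (log2 fold change 1.98 ± 0.36, edgeR adjusted p = 0.000292). It overlaps Mup3 on the same strand and has near-identical relatives, so its level is uncertain. The 6 calls were 3 without UB replicate 1 or 2, and 1 with the mitochondrial share as covariate. Of 13 female-biased genes measured 3 rose and 1 fell, Cyp2c40, given above. Cyp2a4, the largest fitted rise among the named genes, had 17.2, 1.81, 11.7, 0.498 and 19.6 CPM in Uro livers, against 0, 0, 0, 0.284 and 0.0402 CPM in UB livers, with 3 UB libraries at 0 and Uro replicates 2 and 4 far below the other 3 Uro libraries (edgeR adjusted p = 0.00247). It differs little in sequence from Cyp2a5, which averaged 1624 ± 684 CPM in Uro and 468 ± 187 CPM in UB (edgeR adjusted p = 0.0301) and lost its call without Uro replicates 1, 3 or 5 or UB replicates 1, 2 or 3 (edgeR adjusted p = 0.0564 to 0.086), and how their shared reads were counted is not stated.

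Outside the lists, the largest rises included Tsku, a secreted liver proteoglycan, with 121, 60.4, 101, 51.7 and 59.9 CPM in Uro livers, against 8.51, 7.32, 17.4, 14.4 and 27.6 CPM in UB livers (log2 fold change 2.39 ± 0.49, edgeR adjusted p = 0.00181). The water channel Aqp8 had 19.5, 11.8, 46.3, 37.6 and 32.5 CPM in Uro livers, against 2.70, 1.95, 5.63, 5.84 and 9.33 CPM in UB livers (log2 fold change 2.53 ± 0.48, edgeR adjusted p = 0.000869). Tnfrsf12a, the receptor of the cytokine TWEAK, and Ly6d, a surface protein of the Ly6 family, rose by 2.59 and 2.38 (edgeR adjusted p = 0.00839 and 0.00977). Tnfrsf12a overlaps Hcfc1r1, which has more counts, on the other strand. The 8 largest falls, ranked among called, characterised protein-coding genes averaging at least 1 CPM without overlap, included 4 olfactory, vomeronasal or homeobox genes. Or4f14b, Vmn2r114 and Rhox8 passed that level through the UB libraries, where they were higher. The number 4 therefore describes the selection and not these gene classes. Or4f14b, an olfactory receptor gene, had 0.557, 1.58, 0.332, 0.403 and 0.899 CPM in Uro livers, against 7.03, 9.66, 4.401, 4.06 and 4.91 CPM in UB livers (log2 fold change -3.00 ± 0.44, edgeR adjusted p = 3.43e-05). Or7g23, another, averaged 3.08 ± 2.58 CPM in Uro and 20.8 ± 8.75 CPM in UB (edgeR adjusted p = 0.000363). Vmn2r114, a vomeronasal receptor gene, had 0.780, 0.755, 0.0829, 0.427 and 0.539 CPM in Uro livers, against 4.28, 6.54, 2.69, 2.92 and 1.41 CPM in UB livers (log2 fold change -2.78 ± 0.47, edgeR adjusted p = 0.000148). Rhox8, a homeobox gene of reproductive tissue, had 0.529, 0.295, 0.111, 0.237 and 0.180 CPM in Uro livers, against 1.83, 3.77, 2.57, 0.933 and 1.05 CPM in UB livers (log2 fold change -2.88 ± 0.57, edgeR adjusted p = 0.000761). Srp54b, of the signal recognition particle, Pdpr, which regulates pyruvate dehydrogenase phosphatase, and Pde7b, a cAMP phosphodiesterase, fell by 2.90, 2.59 and 2.82 (edgeR adjusted p = 0.00155, 0.00156 and 0.000415).

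Among single genes tied to the question of obesity, Cldn1, a tight junction protein, rose by 1.09 (edgeR adjusted p = 0.00551). The next 4 were not called. Pparg, a lipogenic nuclear receptor, averaged 11.3 ± 3.24 CPM in Uro and 9.58 ± 2.39 CPM in UB (edgeR adjusted p = 0.6), and was called, higher, in TPM (limma adjusted p = 0.0445). Fgf21, a hormone of the liver, averaged 18.6 ± 9.17 CPM in Uro and 5.39 ± 5.34 CPM in UB (edgeR adjusted p = 0.109), and was called, higher, without UB replicate 5 (edgeR adjusted p = 0.0291) and in TPM (limma adjusted p = 0.00298). Insig2, a brake on SREBP factors, averaged 41.1 ± 8.65 CPM in Uro and 34.3 ± 7.55 CPM in UB (edgeR adjusted p = 0.515). Coq10b, which binds coenzyme Q, averaged 23.0 ± 4.10 CPM in Uro and 33.03 ± 4.93 CPM in UB (edgeR adjusted p = 0.15), and was called, lower, when the Uro and UB libraries were fitted alone (edgeR adjusted p = 0.0219).

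The 2 steps between the studies, with and without UB-NPs, shared part of their calls. Of the 2008 genes called in Uro minus UB, 403 (20.1%) were called in the same direction in HFD minus MC, which is 14.1% of the 2858 called there. Another 174 (8.67%, and 6.09% of the other list) were called in the opposite direction, 153 of them higher in Uro minus UB and lower in HFD minus MC. Across genes the 2 fold changes had a Pearson r of 0.211 and a Spearman rho of 0.187 over 14785 genes, which are not independent replicates. The test of the difference called 1818 genes (12.3%), 1263 more positive and 555 more negative in Uro minus UB. Differences were ranked among called, characterised protein-coding genes with a mean of at least 1 CPM and no overlap of Uro with UB. There, the largest positive differences were in Nat8f5, an acetyltransferase, Cyp2c29, Retsat, retinol saturase, and Tmem37, a membrane protein, at 3.38, 3.21, 3.13 and 3.04 (edgeR adjusted p = 0.000287, 0.000108, 3.76e-05 and 0.000187). Retsat, for example, had 285, 265, 345, 241 and 323 CPM in Uro livers, against 115, 124, 114, 122 and 172 CPM in UB livers and its fold change in HFD minus MC was -1.96. The largest negative ones were in Rhox8, Vmn2r114, Tgtp2, an interferon-inducible GTPase with a close paralog, and Pde7b, at -3.28, -3.02, -3.00 and -2.99 (edgeR adjusted p = 0.0038, 0.00128, 0.0117 and 0.00399). Tgtp2 had 3.51, 3.48, 2.65, 4.67 and 2.40 CPM in Uro livers, against 10.6, 7.06, 49.2, 4.99 and 5.95 CPM in UB livers, with UB replicate 3 far above the others, and its fall in Uro minus UB was not called without UB replicate 3 (edgeR adjusted p = 0.0947). With the mitochondrial share as covariate the test of the difference called 0 genes, with 1333 at an unadjusted p under 0.05.

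**Figure D5:**
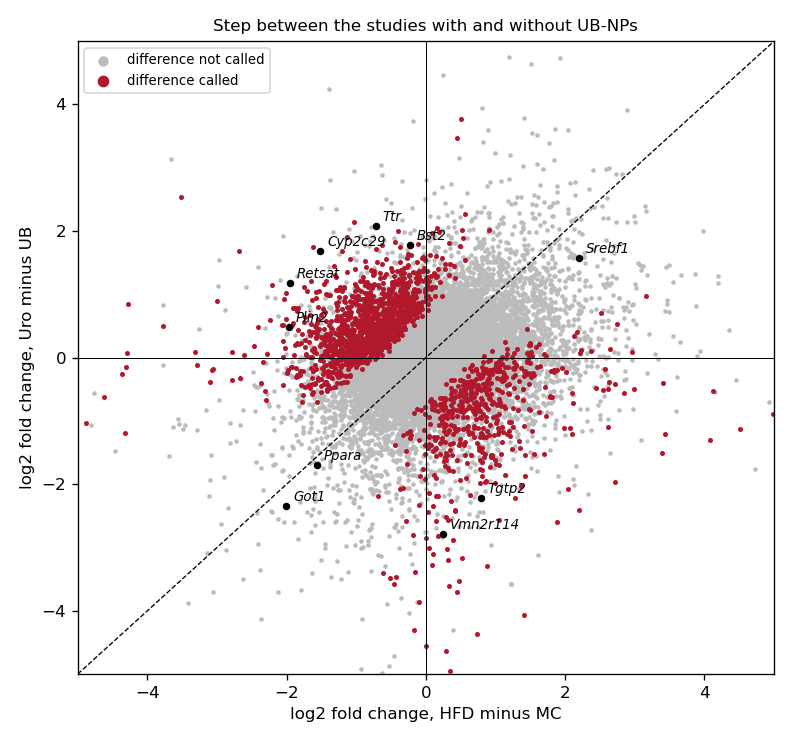
Log2 fold change of each of 14785 genes in Uro minus UB (vertical) against HFD minus MC (horizontal), with 64 genes beyond the plotted range of 5 in either direction. Genes whose fold changes differ by the edgeR test of the difference are in red, 1263 above the dashed line of equality and 555 below it, and named genes are black.

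With the standard diet, NFD minus NC shared 434 of the 2008 calls in the same direction (21.6%, and 19.3% of the 2245 called there) and 65 in the opposite direction. That comparison shares the step between studies and the extra weeks, with neither the fat nor the UB-NPs. In it, 11 of the 38 amino acid and urea genes and 5 of the 16 glucocorticoid-responsive genes were lower, and 0 were higher. Of the bile acid genes 9 were higher and 1 lower, of cholesterol genes 7 and 0, and of pericentral markers 5 and 0. Other lists did not match Uro minus UB: the NRF2 list had 2 higher and 4 lower, and MHC class II genes 0 and 2. Of all genes 9.01% were higher and 6.18% lower there.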

How the data were processed

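Liver RNA was sequenced as poly(A)-selected libraries, per the labels' protocols. The submitters' processing notes name fastp, HISAT2, StringTie, DESeq2 and the build GRCm39, with no versions. Whether counting used strand, and how shared reads were assigned, is not given in the sources used here. The deposited estimated counts, of which 16.0 to 20.9% of nonzero values were fractional, were rounded, and the authors also deposited TPM. All 30 libraries were fitted together with edgeR 4.0.16 (R 4.3.3; TMM scaling, filterByExpr, robust quasi-likelihood test, Benjamini-Hochberg adjustment over 14785 genes, 0.05). Alternatives were DESeq2 1.42.0, limma 3.58.1 on log2(TPM + 1), other filters, the mitochondrial share as a covariate, a replicate block and leaving out each library. The share sums 37 mitochondrial genes and 13 nuclear copies found by BLAST (80% identity over 50% of length). Replicate libraries were compared, and 0 of 60 pairs were identical. Simulated data with known changes were used to test the fit.

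The members, lists and tests were chosen with earlier results of these data known. Named genes were the 8 largest rises and falls, up to 3 called members per list, 26 genes of interest and the 4 largest differences in each direction. Rises, falls and differences came from called, characterised protein-coding genes with a mean of at least 1 CPM and no overlap of Uro with UB. Further list members were named after their values were seen. A few genes are not reported here.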

Additional observations from a re-analysis of the deposited data

Results flagged for a closer look

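Gaps within a group were examined in 338 groups of 5 values, for the named genes, the mitochondrial share and the total counts. Of these groups 37 had 1 library whose gap to its nearest neighbour, divided by the range of the group, exceeded Dixon's critical value of 0.71. Chance gives about 1 in 20 groups, and genes of 1 library are not independent. In Uro replicate 1 this gap was 0.821 for Mup20. In Uro replicate 2 this gap was 0.821 for Pax5, 0.78 for Pdpr, 0.733 for Pmvk and 0.793 for Saa1. In Uro replicate 3 this gap was 0.806 for Acaca, 0.77 for Bscl2, 0.795 for Cbr3, 0.719 for Cox4i1, 0.758 for F12, 0.877 for Gss, 0.72 for Manf, 0.778 for Srxn1 and 0.787 for Tnfrsf12a. In UB replicate 1 this gap was 0.785 for Akr1d1, 0.767 for Aldh1b1, 0.744 for Manf and 0.729 for Pde7b. In UB replicate 2 this gap was 0.729 for Coq10b, 0.746 for Kcnq1ot1, 0.79 for Ppp1r3g and 0.737 for Tat. In UB replicate 3 this gap was 0.724 for Ifi27, 0.88 for Ifit1, 0.784 for Irf9, 0.841 for Irgm1, 0.846 for Pax5, 0.811 for Saa1, 0.739 for Stat2 and 0.873 for Tgtp2. In UB replicate 4 this gap was 0.858 for Cyp2a4 and 0.897 for Spp1. In UB replicate 5 this gap was 0.715 for Apoe, 0.735 for Cyp1a2, 0.818 for Retsat and 0.79 for Sc5d. For the mitochondrial share in UB the gap was 0.765, with UB replicate 1 at 52.0%.

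The fold change of Uro minus UB differed from that of HFD minus MC in 1818 genes by the edgeR test of the difference. Among the genes named, the log2 difference was positive for Nat8f5 (3.38), Cyp2c29 (3.21), Retsat (3.13), Tmem37 (3.04), Ttr (2.80), Slc10a1 (2.62), Tm7sf2 (2.62), Plin2 (2.44), Bst2 (2.00), Fads2 (1.58), Dgat2 (1.24) and Agpat2 (1.12). It was negative for Rhox8 (-3.28), Vmn2r114 (-3.02), Tgtp2 (-3.00), Pde7b (-2.99) and Mx1 (-2.96).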

How the results depend on the processing

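The 1033 higher and 975 lower genes of Uro minus UB, 2008 in all, were 325 with the mitochondrial share as a covariate, 3044 when only the Uro and UB libraries were fitted, 3346 from the deposited TPM (3031 higher and 315 lower) and 954 at a fold change of at least 2. Leaving out 1 library gave 1231 to 2056. HFD minus MC, with 2858 genes called, had 1461 with the covariate and 1297 from TPM. NFD minus NC, with 2245, had 143 from TPM, and 1211 to 3341 without 1 library, the lowest without NFD replicate 4, and 1319 without NC replicate 2. The test of the difference called 0 genes with the covariate. Of 138 named genes called, 35 kept their call and direction with the covariate, 105 from TPM, 122 without the filter on low counts, and 114 to 134 without 1 library. Scaling by DESeq2 size factors and the DESeq2 test changed none of these 138 calls. Of the named genes not called, DESeq2 called Col1a1 and Timd4, the covariate Gpnmb, and TPM Cidea, Col1a1, Fgf21, Gclm, Gpnmb, Nqo1, Per3, Pparg, Saa1, Spp1 and mt-Atp8. Ppara and Acat1 changed sign in TPM, to 0.015 and 0.349. The cause of these changes was not tested. Same-numbered Uro and UB libraries had correlations of -0.0368 to 0.0929 and were not taken as pairs. With the replicate block 1860 genes were called, and no library correlated best with its own number. Counts outside the mitochondrial share limit low genes most in UB.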

Other observations

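By gene type, 33 of 180 processed pseudogenes were lower in Uro and 2 higher (18.3% and 1.11%, against 6.59% and 6.99% of all genes tested). Of 1176 long non-coding RNAs 80 were lower (6.8%, near the share of all genes) and 9 higher (0.765%). Olfactory receptor genes had 6 of 39 lower (15.4%) and 0 higher, and vomeronasal receptor genes 4 of 21 lower (19%) and 0 higher. All of these classes lie at a median level near or under 1 CPM except the olfactory receptors in UB, at 1.30 CPM against 0.665 CPM in Uro. The classes were chosen after values had been seen.

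Families of conjugating enzymes were counted by name, and some of their members are also in the lists above. Of 20 glutathione S-transferase genes 10 rose and 1 fell, and of 19 UDP-glucuronosyltransferase genes, whose enzymes attach glucuronic acid, 7 rose and 2 fell. Of 9 sulfotransferase genes 1 rose and 2 fell (median -0.493). In HFD minus MC the glutathione S-transferases had 2 higher and 11 lower, the UDP-glucuronosyltransferases 2 higher and 7 lower, and the sulfotransferases 0 higher and 3 lower. Selenoproteins and selenium-binding proteins had 5 of 13 higher and 0 lower. Proteasome subunits had 1 of 39 higher and 2 lower in Uro minus UB, against 0 higher and 29 lower in HFD minus MC. Members of these families are close in sequence.

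Counts and TPM of Ppara and Acat1 were not in proportion. Relative to the median gene, Ppara had 0.204 ± 0.0669 counts per TPM in Uro and 0.499 ± 0.162 in UB, and Acat1 had 0.924 ± 0.168 in Uro and 1.54 ± 0.0578 in UB (SD, n = 5 each).

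The antioxidant response element core, TGACNNNGC on both strands, was in 9 of 38 promoter windows of the NRF2 list (23.7%) and in 12.4% of all windows. It was also in 7 of 36 windows of the interferon list (19.4%), so it was not particular to the NRF2 list. By gene of the NRF2 list it was found for 2 of 14 that rose and 7 of 15 not called.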
